A study of Homo sapiens with 8 samples.

Results

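The interval of human chromosome 6 that holds the main replication-dependent histone gene cluster and the large tRNA gene cluster, in band 6p22, was among the most densely open stretches in these libraries. It was taken as the 3.3 Mb that end at position 29000000 of hg19, and its members were the peaks that lay wholly inside it in each of 8 ATAC-seq peak lists. Overlapping peaks (1 bp or more in common) were joined across the lists, which gave 202 regions of 2641 on chromosome 6 and of 36845 in all. The first inside was 25720792 to 25721270 and the last 28984353 to 28985053. The nearest outside ended at 25557077 and began at 29483958, so no peak crossed an edge.

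The cells were 293T, an established line from human embryonic kidney with the large T antigen of SV40. All 8 libraries came from crosslinked, permeabilised and tagmented cells of this line, grown in the same medium, with no other treatment or genotype named. In ATAC-seq a transposase cuts open chromatin and leaves adapters at the cuts. The material was put on Q Sepharose, a resin that binds negative charge and lets go as salt rises. The unbound part (FT) and the washes at 20, 100, 200, 300, 500, 700 and 1000 mM NaCl (G20 to G1000) gave 1 library each. There were no replicates, so no difference has a replicate check, and a test speaks of these libraries, not of the salt steps in general. The G200 list names its peaks G50_200, so whether it holds more than the 200 mM wash is not known.

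Replication-dependent histone genes encode the H1 linker and the H2A, H2B, H3 and H4 core histones that package new DNA, and they are transcribed mainly in S phase. Their mRNAs end in a stem-loop in place of a poly(A) tail, and the genes gather in the nucleus at histone locus bodies. The neighbouring tRNA genes are transcribed by RNA polymerase III from promoters inside the genes. In the RefSeq table (GRCh38.p14), 93 coding genes lie in order from H2AC1 to ZNF311, and 55 of them are histone genes: 6 of H1, 12 of H2A, 15 of H2B, 10 of H3 and 12 of H4. The same stretch lists 144 of the 465 tRNA genes of the table (31.0%). It also holds 14 zinc finger genes, 6 butyrophilin genes (membrane proteins related to immunoglobulins), 3 SLC17A transporter genes and 2 olfactory receptor genes. The peak positions are hg19 and the table is GRCh38, so no peak was assigned to a gene, and sequences under the peaks were not analysed here.

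The histone promoters of the cluster differ by class in the motifs they hold, and 3 are shown here as RefSeq windows of 250 bases before to 50 after the gene start (GRCh38.p14). H2AC8 and H2BC8, which encode core histones H2A and H2B, are neighbours on opposite strands, and a run of 268 bases of the first window returns as the reverse complement in the second. H4C13, which encodes core histone H4, has no octamer and is 1 of the 3 H4 windows with CCAAT. Capitals mark matches to the letters of the TATA box (TATAAA), the CCAAT box and the octamer (ATTTGCAT), each on either strand. The TTTATA and ATGCAAAT marked in H2AC8 are the same DNA as the TATAAA and ATTTGCAT marked in H2BC8.
H2AC8: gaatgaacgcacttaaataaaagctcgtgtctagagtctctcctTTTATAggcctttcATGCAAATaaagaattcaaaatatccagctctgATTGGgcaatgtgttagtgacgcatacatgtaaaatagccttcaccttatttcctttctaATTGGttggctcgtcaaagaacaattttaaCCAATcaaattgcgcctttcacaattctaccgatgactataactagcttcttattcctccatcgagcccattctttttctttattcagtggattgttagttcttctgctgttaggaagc
H2BC8: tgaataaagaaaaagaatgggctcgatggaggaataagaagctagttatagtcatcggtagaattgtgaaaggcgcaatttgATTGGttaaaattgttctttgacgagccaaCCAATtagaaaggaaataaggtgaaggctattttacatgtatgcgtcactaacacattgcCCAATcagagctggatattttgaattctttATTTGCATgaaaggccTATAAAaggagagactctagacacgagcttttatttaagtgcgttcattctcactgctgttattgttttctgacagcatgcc
H4C13: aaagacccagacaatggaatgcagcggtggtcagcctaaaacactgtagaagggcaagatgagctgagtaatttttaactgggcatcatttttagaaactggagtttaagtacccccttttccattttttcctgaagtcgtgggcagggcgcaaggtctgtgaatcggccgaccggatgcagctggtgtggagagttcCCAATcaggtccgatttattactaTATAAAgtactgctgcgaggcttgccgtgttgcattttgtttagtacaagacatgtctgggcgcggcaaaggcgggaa

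The table held 54 such windows for 50 of the 55 histone genes. TATAAA was in 36 of the 54 windows (66.7%), against 11.5% of all 35116 windows of the table. CCAAT was in 47 (87.0%), against 34.6%, and of the 10 H4 windows only 3 held it. The octamer, a site for POU factors such as OCT1, was in 13 of 17 H2B windows (76.5%) and 9 of 11 H2A windows (81.8%), against 1.77% of all windows. It was in 0 of 6 H1, 1 of 10 H3 and 0 of 10 H4 windows, which makes 23 of all 54 histone windows (42.6%). Windows of the zinc finger genes in the same stretch held TATAAA in 0 of 19. Of the 12 neighbouring H2A and H2B pairs, 10 were on opposite strands, and in 9 pairs the windows shared a reverse-complement run of at least 253 bases. In those 9 pairs both genes start within the same short stretch of DNA. Motifs were counted on either strand, so a motif in such a run counts for both the H2A and the H2B window. The counts by class and over all 54 windows are therefore not counts of separate sites. The B box, an internal promoter element of tRNA genes, was in 0 of the 54 histone windows and in 0.185% of all windows. The table gives no windows for tRNA genes. These matches describe letters in the windows and not bound sites.

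Open regions lay closer together in the interval than elsewhere on the chromosome. It held 61.2 regions per Mb, against 14.6 per Mb in the rest of chromosome 6 and 31.4 per Mb in the next 4.4 Mb, which hold the major histocompatibility complex (MHC). The interval is 1.93% of the chromosome up to its last region, and it held 7.65% of the regions. The median gap between neighbours was 11136 bp, against 34229 bp in the rest of the chromosome. The merged regions covered 159.8 kb.

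The 3 full 1-Mb windows inside the interval took places 1, 2 and 3 among all 2768 windows of the placed chromosomes that held a region. The window that ends at 29000000 held 71 regions, that ending at 27000000 held 65 and that ending at 28000000 held 61. The medians were 15 regions on chromosome 6 and 12 in the genome. The next window of chromosome 6, ending at 32000000 in the MHC, held 40 and took place 25 in the genome. Counted by regions called in all 8 lists, the window ending at 27000000 was first in the genome with 18, but those ending at 28000000 and 29000000 held 14 and 10 and took places 4 and 15. With every list cut down to the 8102 peaks of highest −log10 q (equal list length), the 3 windows still led the genome with 44, 44 and 46 regions. The q-value is the authors' p-value of a peak adjusted within its list.

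The regions were spread unevenly along the interval. Of 33 windows of 100 kb, 1 was empty and the median held 6. The fullest, from 28600001 and from 28700001, held 14 each, and that from 26500001 held 13. These dense windows differed in how widely their regions were shared. The window from 28600001 had 0 regions of all 8 lists and 6 of a single list, while that from 28700001 had 4 and 3. The window with the most fully shared regions was that from 27100001, with 5 of 9. The longest gap ran from 27878406 to 28047961, and the 3 windows before position 26000000 held 5 regions together.

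**Figure D1:**
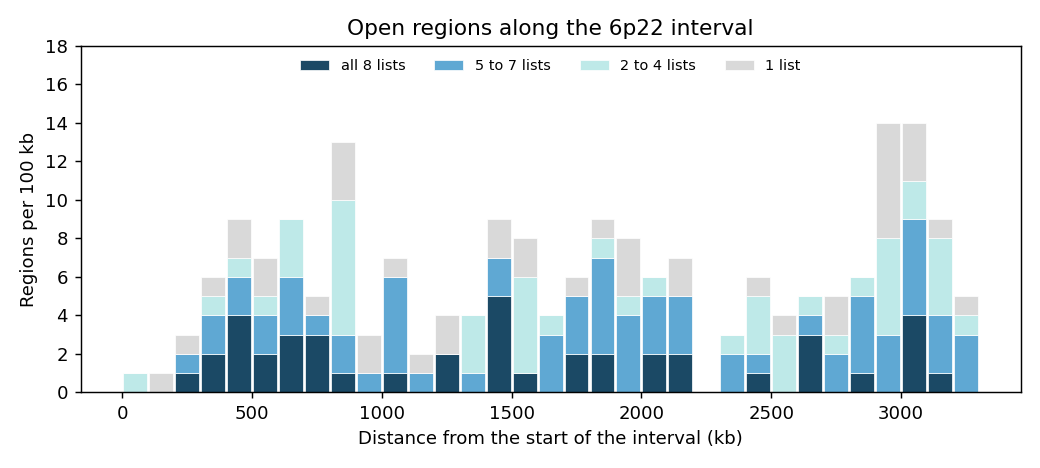
Regions per 100 kb (y axis) against the distance from the start of the interval in kb (x axis), stacked by the number of lists that called them. The 2 tallest bars reach 14 regions near the far end, the leading 300 kb hold 5 regions, and 1 window is empty.

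Histone genes lie, on textbook maps of hg19, mainly in a first block (here the 300 kb after position 26000000) and a second block (200 kb, starting 1400 kb after the first ends), and tRNA genes are common between and beyond them. The first block held 22 regions, or 73.3 per Mb, and 8 of them (36.4%) were called in all 8 lists. The second block held 13 regions, or 65.0 per Mb, and 4 of them (30.8%) were in all lists. The stretch between the blocks had the same density, with 91 regions, and 20 of them were in all lists. The distal stretch, the last 1100 kb, had 71 regions, or 64.5 per Mb, and 10 of them (14.1%) were in all lists. The leading stretch before 26000000 had 5 regions, or 16.7 per Mb. Density was thus alike in the 4 inner and distal stretches, and the share called in all lists was higher in the 2 histone blocks. No test was made of these shares, which rest on small counts. Since the blocks hold the histone genes mainly but not wholly, the other stretches may hold some as well. Regions were also widest in the histone blocks, with a median of 799 bp in the first and 836 bp in the second, against 769 bp between them and 693 bp in the distal stretch.

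With the full lists, regions of the interval were called in more lists than those of the rest of the chromosome, but with stronger peaks only, the share called in all lists was close to that over all regions. Of the 202, 43 (21.3%) were called in all 8 lists, against 254 of 2439 (10.4%) in the rest of chromosome 6 and 11.5% of all regions. In the MHC stretch it was 22 of 138 (15.9%). At equal list length 25 of 136 regions of the interval (18.4%) were in all lists, against 3027 of 16809 over all regions. With only peaks of −log10 q of 5 or more it was 17 of 140 (12.1%), the same share as over all regions (12.1%). In the full lists another 34 regions (16.8%) were called in 7 lists, against 6.72% in the rest of chromosome 6 and 6.30% of all regions. Of these 34, 12 were missing in G1000, 10 in G700 and 5 in G500, while 3 each were missing in G100 and G200, 1 in FT and 0 in G20 and G300. The lists of G1000, G700 and G500 are the shortest, with 10246, 8102 and 10384 peaks. The same split was not counted outside the interval. Regions of a single list numbered 43 (21.3%), against 42.0% in the rest of the chromosome, and 116, the 34 of 7 lists among them, were in 2 to 7 lists. The median region of the interval was in 5 lists and that of the rest in 2.

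**Figure D2:**
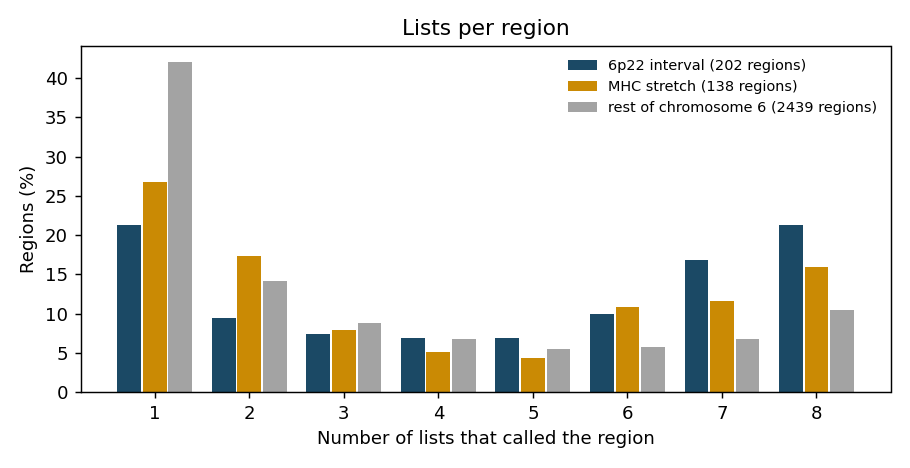
Share of regions in percent (y axis) by the number of lists that called them (x axis), for the 6p22 interval, the MHC stretch and the rest of chromosome 6, which includes the MHC stretch. The bars of the interval are level at 1 and 8 lists (21.3% each), while those of the rest fall from 42.0% to 10.4%.

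The share of the 202 regions that each list called followed the length of the list. FT called 157 (77.7%), G20 145 (71.8%), G300 146 (72.3%), G200 124 (61.4%) and G100 112 (55.4%). The high-salt washes called fewer, with 94 (46.5%) in G500, 92 (45.5%) in G1000 and 84 (41.6%) in G700. In the rest of the chromosome FT called 1463 of 2439 regions, and the other lists called 50.3% (G20), 51.4% (G300), 39.7% (G200), 35.4% (G100), 28.3% (G500), 29.0% (G1000) and 21.7% (G700). The share was higher in the interval than in the rest of the chromosome in 8 of 8 lists. Over all regions it ran from 21.9% in G700 to 61.6% in FT. In the MHC stretch it was 67.4% in G200, above the interval. In the other lists the MHC stretch was below the interval, from 23.2% in G700 to 71.7% in FT. FT, the longest list with 22807 peaks, had 13 of the 43 single-list regions and G20 had 11, whereas G500 and G700 had 1 each. G700 is the shortest list, with 8102 peaks.

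Regions of a single list were weak. Their −log10 q was 1.34 to 5.37 with a median of 2.80, where the median of the best value of the fully shared regions was 16.6. The strongest of them was 27515147 to 27515591, called in FT alone with a −log10 q of 5.37. These folds and q-values are the authors' and rank peaks within a list.

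In the full lists no relation with salt passed the test for the share of chromosome 6 peaks that fell in the interval. It was 9.82% in FT (160 of 1630 peaks), 11.0% in G20 (153) and 11.6% in G100 (114), then 11.5% in G200 (126) and 10.5% in G300 (148), and at high salt 12.2% in G500 (96), 14.0% in G700 (87) and 11.6% in G1000 (93). G700 had the highest share and FT the lowest. Over the 7 salt libraries Spearman's rho was 0.46 (exact permutation p = 0.302, two-sided), and r by Pearson was 0.46 (exact permutation p = 0.299). When the 2 libraries farthest from the median salt were left out, r was 0.41. This share was the only quantity set against salt, but it was tried under several settings, and their p-values were not adjusted for their number. With FT placed before G20, by rank, rho was 0.64 (exact permutation p = 0.0962) and r was 0.65 (exact permutation p = 0.0714). The direction depended on list length: with lists of equal length rho was −0.54 (exact permutation p = 0.236) and r was −0.76 (exact permutation p = 0.0442). The shares then ran from 12.1% in G1000 to 14.7% in G20. The weakest peak kept had a −log10 q of 7.89 in FT and of 1.32 in G700, so the lists were not equally strict.

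Peaks of the interval were wider than those of the rest of chromosome 6 in 7 of 8 lists. The median width was 673 bp against 517 bp in FT, 507 against 449 in G20, 568 against 472 in G100, 578 against 474 in G200 and 620 against 492 in G300. In the high-salt washes the medians lay closer, at 489 bp against 441 in G500 and 481 against 448 in G1000, and in G700 the order turned, at 412 against 419. Of the merged regions, 54 (26.7%) were at least 1000 bp wide, against 10.3% in the rest of the chromosome.

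The widest region was 26020603 to 26022528 (1926 bp), in the first histone block. It was called in all 8 lists, with 33 reads at the summit in FT, 29 in G20 and 21 in G100, then 27 in G200 and 22 in G300, and at high salt 18 in G500, 15 in G700 and 13 in G1000. The reads were recovered from the deposited fold and p-value of each peak, and may be fragments where reads are paired. The next widest, 27099375 to 27101197 (1823 bp), was called in all 8 lists as 11 peaks, so some lists split it. Split regions numbered 14 of 202 (6.93%), against 1.27% in the rest of the chromosome.

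Reads around the peaks were also denser in the interval. The peak caller's local background, the expected reads at a summit from the surrounding reads, was recovered beside the pileup and divided by the lowest background of the list. The median ratio was 3.88 in FT, 4.30 in G20 and 4.16 in G100, then 5.63 in G200 and 3.90 in G300, and at high salt 4.83 in G500, 4.09 in G700 and 4.04 in G1000. In the rest of chromosome 6 it was 2.56, 2.91, 3.40, 3.77, 2.72, 3.50, 3.57 and 3.29 in the same order. The interval was higher in 8 of 8 lists, although the quartiles overlapped. The first histone block was higher still, from 4.14 in G700, close to the interval, to 9.37 in G200. The second histone block was below the interval in G100 (4.02) and G1000 (3.48) and above it in the other libraries, up to 6.49 in G200. The distal stretch ran from 3.19 in G1000 to 4.81 in G200. A local background counts the reads of nearby peaks and of extra DNA copies alike, and their parts in it were not tested.

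**Figure D3:**
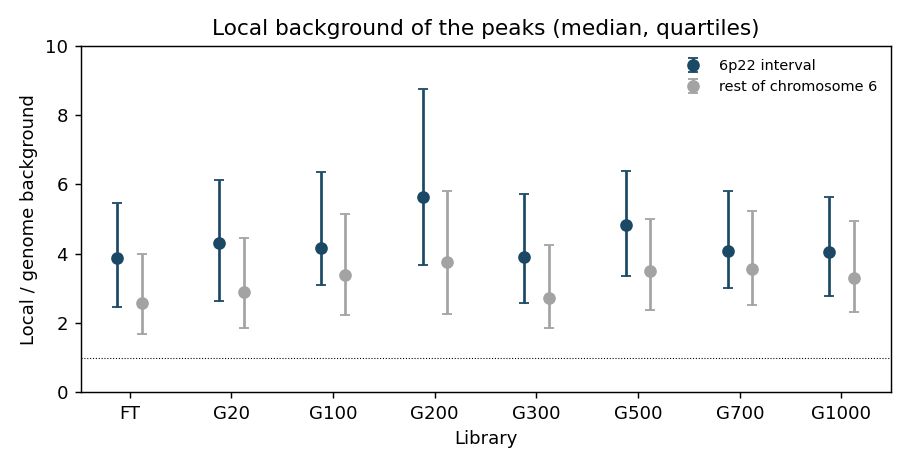
Local background of the peaks over the lowest background of their list (y axis, a ratio) by library (x axis). Points are medians and bars run from the lower to the upper quartile over peaks, and the interval lies above the rest of chromosome 6 in each library, with the largest ratio in G200 (5.63).

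More reads lay under the summits of the interval, but the fold over the local background was like that of the rest. The median pileup was 20 reads against 13 in FT, 16 against 12 in G20, 13 against 11 in G100, 12 against 10 in G200, 16 against 12 in G300, 12 against 10 in G500 and G1000, and 11 against 10 in G700. The median fold was 5.35 against 5.22 in FT and 5.86 against 5.47 in G300, and it was lower in the interval in G200, G700 and G1000, with 5.47 against 5.75 in G700. By the medians, a listed peak of the interval thus had more reads at its summit and more around it. A peak is listed only where its pileup exceeds its local background, so a higher background raises the pileup needed. The higher median pileup of listed peaks is therefore not separate from the higher background.

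Over all listed peaks, the interval had a higher median −log10 q than the rest of chromosome 6 in 7 of 8 lists and a higher median fold in 5. The fully shared regions did not keep this order. In each of the 8 lists the 43 regions of the interval had a lower median −log10 q and a lower median fold than the 254 of the rest of chromosome 6. The median fold was 6.94 against 7.16 in FT, 7.45 against 8.51 in G20, 6.60 against 7.26 in G100, 6.39 against 7.57 in G200, 6.83 against 8.07 in G300, 6.37 against 6.77 in G500, 6.36 against 6.58 in G700 and 5.97 against 6.90 in G1000. Their median pileups differed little and were lower in the interval in 5 of 8 lists. They were 25 reads against 27 in FT, 24 against 26 in G300 and 14 against 13 in G700. The 8 lists come from the same cells, so they are not independent of each other in this respect.

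Places of the summits varied between the lists. Over the 43 fully shared regions the summits of the strongest peak of each list spread over a median of 281 bp, and over at most 841 bp. The closest were the summits in 26223597 to 26224659, in the first histone block, within 30 bp. Only 2 regions had in each list a summit within 100 bp of that of their strongest peak.

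The 10 highest-ranked fully shared regions are described next, by the mean of their ranks over the lists. Of these, 4 lay between the histone blocks, 3 in the first block and 3 in the distal stretch, with 0 in the second block. The strongest peak of the interval was in one of them in 8 of 8 lists.

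The region 26473882 to 26474604, between the blocks, had the best mean rank. It had 43 reads in FT, 40 in G20 and 27 in G100, then 35 in G200 and 25 in G300, and at high salt 22 in G500, 20 in G700 and 23 in G1000. Its −log10 q was 16.4 (G700) to 35.4 (G20), and it ranked 288 of 22807 peaks in FT and 352 of 8102 in G700. Its lowest place was 2189, in G300. After scaling to the other regions, G300 had 0.648 times the expected reads there, the lowest of its 8 ratios (exact binomial test, two-sided, adjusted p = 0.646).

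The region 28303167 to 28304039, in the distal stretch, held the strongest peak of the interval in FT, G300 and G700. It had 61 reads in FT (95% Poisson interval 46.7 to 78.4), 41 in G20 and 19 in G100, then 27 in G200 and 35 in G300, and at high salt 18 in G500, 21 in G700 and 18 in G1000. FT stood highest, with 1.49 times the expected reads. This was the smallest p of the interval and did not pass after adjustment (exact binomial test, p = 0.00107, adjusted p = 0.134). Its −log10 q of 54.2 in FT was the highest of any peak of the interval and put it at place 75 of the list.

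The region 26103690 to 26104699, in the first histone block, varied most of the 10. It had 35 reads in FT, 44 in G20 and 21 in G100, then 42 in G200 and 32 in G300, and at high salt 24 in G500, 8 in G700 and 20 in G1000. The G200 library had 1.49 times the expected reads (exact binomial test, adjusted p = 0.482) and G700 had 0.443 times (adjusted p = 0.510), the lowest ratio of any region and library in the interval. It ranked 202 of 15988 peaks in G200 and 5287 of 8102 in G700, and these places are within lists of different length. The 8 reads of G700 have a 95% Poisson interval of 3.45 to 15.8, so counting error alone is large.

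The region 27218929 to 27219825 had 16 (G500) to 38 reads (G300). The region 28833254 to 28834590, in the distal stretch, had 44 reads in G20, 31 in G1000 and 19 in G200. That in G1000 was the strongest peak of the interval in its list. Of the other first-block regions, 26223597 to 26224659 had 28 reads in both G20 and G300 and 16 in G700, and 26285275 to 26286282 had 30 in FT, 27 in G100 and 14 in G700. The other 3 were 26365078 to 26365907, 28510233 to 28511072 and the wide 27099375 to 27101197. Their reads ran from 10 in G700 (the second of these) to 45 in FT (the last).

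**Figure D4:**
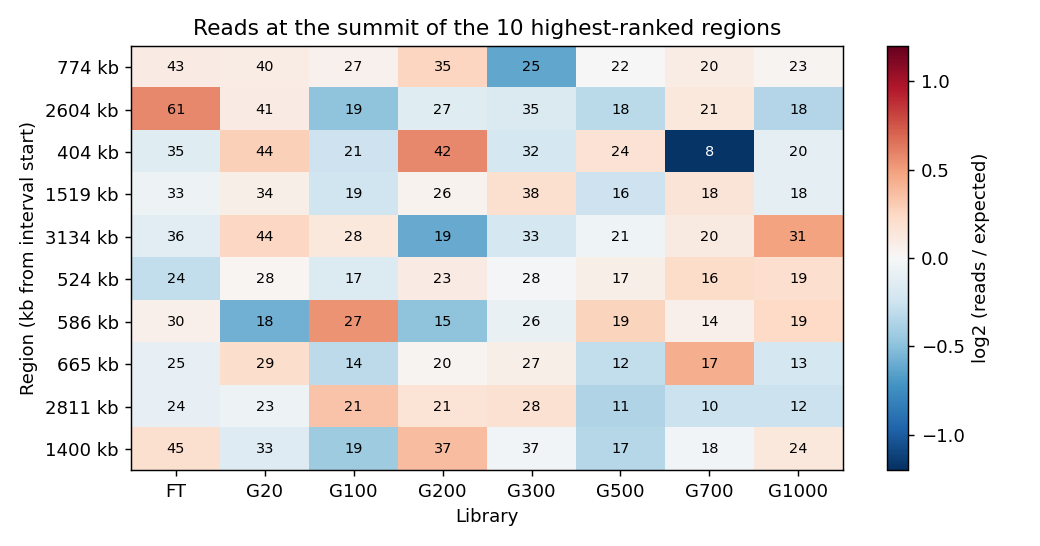
Reads at the summit (numbers in the cells) of the 10 highest-ranked regions (rows, by kb from the interval start) in the 8 libraries (columns), coloured by log2 of reads over expected reads. The darkest cell is the 8 reads of G700 at 404 kb, and none of the differences passed the test.

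No fully shared region of the interval passed a test of 1 library against the other 7. Only regions called in all 8 lists, with recovered reads in each, were tested, which were 43 of the 202 in the interval. For each region and library an exact binomial test (two-sided) set its reads against those of the other 7 libraries. The reads were the highest pileup of each library in the region, so they can come from different bases. Expected shares came from ordinary regions (those not near chromosome ends or long stretches without peaks), with Benjamini-Hochberg adjustment over 33760 tests. Of the 43 regions of the interval 0 passed, against 105 of 4220 in all (2.49%) and 2 of 252 in the rest of chromosome 6. Unadjusted, 13 of the 344 tests in the interval had a p under 0.05 (3.78%), against 5.55% of all tests. The ratios to expected reads ran from 0.443 to 1.66. A p that misses the threshold does not show that the libraries were alike, since the median region had 14 to 25 reads per library.

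Summed over the 43 regions, reads lay close to the number expected from ordinary regions outside the interval. FT had 1150 reads, 1.02 times the expected number (95% Poisson interval 0.958 to 1.08, counting error only), and G20 had 1074, or 1.01 times (0.954 to 1.08). G100 had 718 reads (0.979 times), G200 806 (0.976), G500 646 (1.04) and G1000 627 (0.988), with intervals that include 1. G300 was lowest, with 1021 reads and 0.939 times (0.882 to 0.998), and G700 highest, with 581 reads and 1.10 times (1.01 to 1.19). Set against the rest of chromosome 6 instead, G700 had 1.06 times (0.971 to 1.14) and G300 0.919 times (0.864 to 0.977). With scaling to the genome background, G200 had 1.50 times the expected reads (1.40 to 1.61) and FT 0.775 times (0.731 to 0.821). G20 had 1.14 times (1.07 to 1.21) on that scale. The levels of G200, FT and G20 thus moved with the choice of scale.

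**Figure D5:**
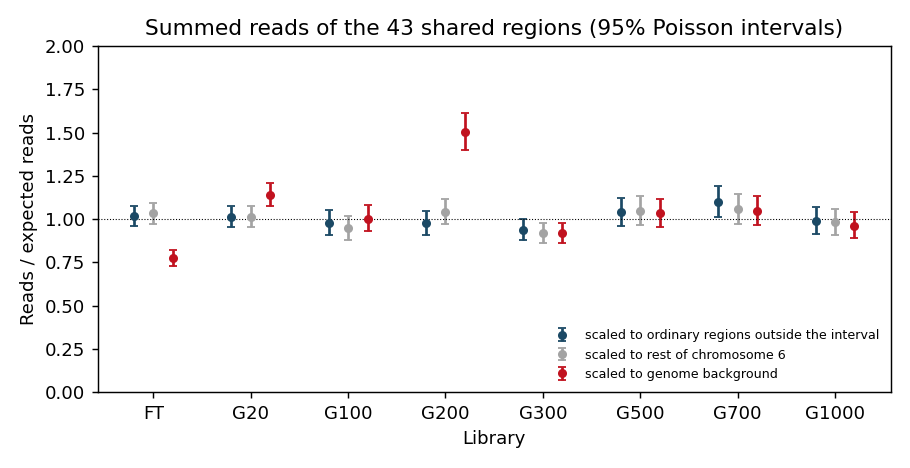
Summed reads of the 43 shared regions over the expected number (y axis, a ratio with 95% Poisson intervals) by library (x axis) under 3 scalings. Under both region scalings the points lie between 0.919 and 1.10, and under the background scaling G200 rises to 1.50 and FT falls to 0.775.

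Within the stretches the counts were small, and differences between stretches were not tested. In the first block the 8 shared regions had 0.920 (G300) to 1.09 times (G200) the expected reads, and each 95% Poisson interval included 1. In the second block the 4 shared regions ran from 0.866 in G1000 to 1.14 in G500, again with intervals that include 1. In the stretch between them G700 had 1.17 times the expected reads (1.04 to 1.31), while the other libraries had 0.929 (G100) to 1.04 times (G20). In the distal stretch FT was highest, with 1.13 times (0.999 to 1.27).

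Few regions were called at low salt and not at high salt. Regions present in the 3 lists FT, G20 and G100 but absent from the G500, G700 and G1000 lists numbered 5 of 202 (2.48%), against 3.10% of all regions and 50 of 2439 (2.05%) in the rest of chromosome 6. All 5 lay between the 2 histone blocks, a stretch that held 91 of the 202 regions. The reverse, called in the 3 high-salt lists and in none of the low-salt ones, was found for 0 regions of the interval, and for 0.00543% of all regions. Each low-salt list is longer than each high-salt list, so regions are called more often in the former.

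The strongest of the 5 was 26745155 to 26745659, with 13 reads in FT, 14 in G20 and 15 in G100, then 10 in G200 and 21 in G300, and a −log10 q of 11.6 in G300. The region 26556524 to 26557290 had 15 (G200) to 22 reads (G20). The region 26341568 to 26342715 had 7 reads in G200 to 13 in FT and was also called in G300. These 3 were called in the 5 lists up to 300 mM. The region 27263146 to 27264531 was called in FT, G20, G100 and G200, and 26328302 to 26328984 in FT, G20 and G100 alone, with 12 to 17 reads. With only peaks of −log10 q of 5 or more, 10 of 140 regions were of the low-salt kind (7.14%, against 4.81% of all regions). At equal list length 1 of 136 was of the low-salt kind (0.735%, against 0.767%), and 3 were of the reverse kind (2.21%, against 0.470%). These counts are small and the differences were not tested.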

How the data were processed

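Peak lists of 8 ATAC-seq libraries of 293T cells, 1 per fraction, were analysed. The submitters' processing notes name the aligner Bowtie2 (2.2.6), the peak caller MACS2 (2.2.1), HOMER, and the builds hg19 and mm10; the peaks were read as hg19. Read filters, multiply mapped reads, any transposase shift and calling settings: not given in the sources used here. Each list deposited by the authors gives for a peak a whole-number score, the fold over local background (a ratio), a −log10 p-value and a −log10 q-value. The lowest −log10 q of a list was 1.30 to 1.32. In the G200 list 13.6% of the folds were written with fewer decimals, against 0% in the other lists. Whether that list was processed differently is not known.

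MACS2 gives the fold as pileup plus 1 over background plus 1 and p from a Poisson distribution, which was solved for a whole pileup up to 3000 (match within 0.001 of −log10 p). A single match was found for 99.3% to 100% of the peaks of a list. The lowest background shared by at least 10 peaks was 0.239 (G200) to 0.662 reads (FT), a relative depth. Read totals are unknown. The read test was tested on simulated data. Intervals are exact 95% Poisson and cover counting error only.

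Regions were named by rule: the 10 fully shared regions of best mean rank, regions that passed the read test, regions of the low-salt and reverse kinds, the widest region and the strongest peak of each list. The members and gene lists were chosen with earlier results of these data known. Alternatives were −log10 q of at least 5, equal list length, 100 bp overlap, summit distance, other scalings, and leaving out G200 or FT. Python 3.11.15, scipy 1.17.1, pandas 2.3.3 and numpy 2.4.6 were used.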

Additional observations from a re-analysis of the deposited data

How the results depend on the processing

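The count of fully shared regions was 43. It was 17 of 140 with only peaks of −log10 q of at least 5 (12.1%, as over all regions), 25 of 136 with lists of equal length (18.4%, against 3027 of 16809 over all regions), and 2 when the summits had to lie within 100 bp. Without G200, 46 regions were called in the other 7 lists. Regions of the low-salt kind numbered 10 with −log10 q of at least 5 (7.14%, against 4.81%) and 1 at equal length (0.735%, against 0.767%), and those of the reverse kind 3 at equal length (2.21%, against 0.470%). Scaled to the genome background, 7 of the 43 tested regions passed the exact binomial test in place of 0, or 16.3%. Of all tested regions 28.1% passed, so this rate was not higher in the interval. Without G200, without FT or scaled to the rest of chromosome 6 the count stayed 0, where 1.02%, 2.01% and 2.89% of all tested regions passed. The rho of the share with salt was 0.00 with −log10 q of at least 5 (exact permutation p = 1) and −0.54 at equal length. With the background scaling the summed reads were 0.775 times the expected number in FT, 1.14 in G20 and 1.50 in G200. The cause was not tested. The places of the 1-Mb windows, tried under 3 alternatives chosen after seeing the data, stayed within the first 3 of the genome. No paired analysis was possible because each fraction has 1 library. Depth limits the read test.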
